A study of Homo sapiens with 24 samples.

Results

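The genes followed here are luminal regulators and products of the urothelium, read in J82 and RT-112, 2 established lines from human bladder cancer: the transcription factors PPARG, GATA3, FOXA1, ELF3, GRHL3 and KLF5, and the uroplakins UPK1A, UPK1B, UPK2 and UPK3A. They were taken by gene symbol, as 10 of the 35993 symbols in the count table, a rule that uses no measured value, though the set was proposed with earlier results of these data known. There were 4 groups in each line, with 3 biological replicates apiece. Parental cells served as the control, and the other groups are named CD44 Low (a low level of the CD44 receptor), CD44 High (a high level of it) and CD44v6 (a high level of the isoform with variant exon v6). CD44 is a surface receptor for hyaluronan. How these lines were derived from the parental cells, and whether each is 1 clone, is not given in the sources used here.

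The urothelium lines the bladder and matures from basal cells through intermediate cells to umbrella cells at the surface. Uroplakins are membrane proteins that umbrella cells pack into rigid plaques: UPK1A and UPK1B are tetraspanins that pair with UPK2 and with UPK3A, respectively, before they leave the endoplasmic reticulum. PPARG is a nuclear receptor that heterodimerizes with retinoid X receptors, and together with the zinc finger factor GATA3 and the forkhead factor FOXA1 it is known for driving the luminal program in bladder cancer cells. ELF3 is an epithelial ETS factor, GRHL3 a grainyhead factor needed for umbrella cell maturation, and KLF5 a zinc finger factor of proliferating and maturing epithelia.

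In RT-112 both tetraspanin uroplakins were lower in CD44 High and CD44v6 cells than in CD44 Low cells, and UPK1A carried the widest difference of the 10 genes, at 4.84-fold lower in CD44 High. In J82 the uroplakins were near or at a count of 0, and PPARG was higher in CD44 High and CD44v6 than in CD44 Low. In RT-112 PPARG was lower, by a small margin, in CD44 High than in CD44 Low, a call at the edge of the threshold that held in 1 of 6 fits without 1 library. The difference between the lines in this change passed its own test. UPK3A had a count of 0 in all 24 libraries.

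The stretch around the transcription start is shown for the 3 genes that were lower in RT-112 CD44v6 than in CD44 Low cells. Each is a 300-base window, 250 bases before and 50 after the start, read 5′ to 3′ along the gene from RefSeq on GRCh38.p14. UPK1A lies on the plus strand at chr19:35666267-35666566, UPK1B on the plus strand at chr3:119173348-119173647 and ELF3 on the plus strand at chr1:202010337-202010636. Capitals mark matches on either strand to TATAAA, to CACCC, the core bound by KLF factors, and to AGGAAG, a core bound by ETS factors; on the other strand CACCC reads GGGTG and AGGAAG reads CTTCCT.

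UPK1A: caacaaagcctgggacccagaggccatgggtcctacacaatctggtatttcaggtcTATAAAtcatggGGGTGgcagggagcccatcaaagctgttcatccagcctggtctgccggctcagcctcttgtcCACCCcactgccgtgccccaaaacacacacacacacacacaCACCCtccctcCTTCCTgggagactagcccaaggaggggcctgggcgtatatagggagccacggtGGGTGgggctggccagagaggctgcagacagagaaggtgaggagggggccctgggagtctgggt
UPK1B: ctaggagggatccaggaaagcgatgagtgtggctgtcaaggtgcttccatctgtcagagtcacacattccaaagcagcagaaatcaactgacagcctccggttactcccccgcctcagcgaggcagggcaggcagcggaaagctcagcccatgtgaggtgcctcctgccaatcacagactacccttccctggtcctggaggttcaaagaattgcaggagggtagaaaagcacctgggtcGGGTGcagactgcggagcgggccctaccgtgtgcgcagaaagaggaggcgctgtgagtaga
ELF3: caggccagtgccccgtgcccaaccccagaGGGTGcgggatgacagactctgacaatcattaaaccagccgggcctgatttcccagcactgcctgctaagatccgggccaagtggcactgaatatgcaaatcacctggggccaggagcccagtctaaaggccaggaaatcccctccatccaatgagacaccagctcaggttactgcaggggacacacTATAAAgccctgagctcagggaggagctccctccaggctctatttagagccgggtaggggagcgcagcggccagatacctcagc

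CACCC matched 4 times in the UPK1A window, once in that of UPK1B and once in that of ELF3. Of all 35116 windows of this length in the RefSeq table, 59.9% held it. TATAAA, found in the UPK1A and ELF3 windows, was in 11.5% of all windows, and AGGAAG, found in that of UPK1A, in 33.6%. None of the 3 windows held GATAA, the GATA core (22.7% of all windows), TGTTTAC, a forkhead element (3.42%), AGGTCA, the element of nuclear receptors (13.8%), or AACCNGTT, a grainyhead element (1.73%), on either strand. The matches overlapped in no window. They describe letters and not binding. The RefSeq table gave 20 windows for 8 of the 10 genes, PPARG and GATA3 with 6 starts each. UPK2 and UPK3A are not among them.

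Total counts ran from 16752825 to 24419670 per library. Levels are given as CPM, the usual share of a library's counts (here its TMM-scaled total), and changes as log2 fold changes fitted by edgeR's quasi-likelihood test. A called gene had a Benjamini-Hochberg adjusted p, taken over all genes tested, below 0.05. RNA was measured in bulk, so fewer cells with a transcript and less of it per cell cannot be told apart. Both lines carried KRT8, a keratin of simple and luminal epithelia, at group means of 2111 to 2980 CPM in RT-112 and of 4169 to 4747 CPM in J82. CD44 itself was at 141 ± 18.2 CPM in RT-112 CD44 Low, 317 ± 27.2 in parental cells, 420 ± 70.0 in CD44 High and 448 ± 69.0 in CD44v6 (SD, n = 3), and in J82 at 279 ± 27.9, 445 ± 46.5, 727 ± 32.0 and 800 ± 242 CPM in the same order. EPCAM, at 286 to 409 CPM in RT-112, was at 1.11 to 2.30 CPM in J82, whose ZEB1 was at 54.8 to 81.6 CPM against 0.242 to 1.41 CPM in RT-112. On the first principal component of the 12 RT-112 libraries, CD44 High replicate 3 lay at 3.62, and the other CD44 High replicates at 36.5 and 38.7, with the parental cells between -11.0 and -2.37. CD44v6 replicate 3 stood apart the other way, at 41.0 among the CD44 High libraries, with the other CD44v6 replicates at 11.6 and 13.1. Both libraries lay nearer to the remaining replicates of the other group than to those of their own. Whether their labels were exchanged was not tested. The calls of these genes are therefore also given without each of these libraries, though no fit left out both.

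The 2 lines differed in nearly all of these genes. In parental RT-112 cells, corrected for the exon length of each gene in GENCODE 29, UPK1B was the most abundant at 213 ± 0.707 CPM per kb (SD, n = 3). KLF5 followed at 60.9 ± 4.86, PPARG at 42.8 ± 1.24, ELF3 at 32.4 ± 2.52, FOXA1 at 23.1 ± 2.24 and GATA3 at 11.1 ± 1.07 CPM per kb. UPK2 at 3.38 ± 0.145, UPK1A at 1.93 ± 0.499 and GRHL3 at 1.18 ± 0.197 CPM per kb closed the order, in which the mean ± SD ranges of neighbours did not overlap. The order depends on the length used, the union of all annotated exons (7.191 kb for ELF3, 4.535 kb for PPARG, 3.893 kb for KLF5). Without this correction ELF3 at 233 ± 18.1 CPM and KLF5 at 237 ± 18.9 CPM overlapped, and PPARG was below both at 194 ± 5.62 CPM. In CD44 Low cells ELF3 reached 63.2 ± 17.3 CPM per kb, a range that took in KLF5 at 63.8 ± 9.23 CPM per kb.

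All 9 genes tested were lower in parental J82 than in parental RT-112 cells, where 62.0% of the 17438 genes tested differed in either direction and 31.0% were lower. PPARG was at 34.5, 34.6 and 34.9 CPM in the J82 libraries and at 193, 190 and 200 CPM in those of RT-112, a log2 difference of -2.49 (SE 0.10, adjusted p = 4.73e-15, edgeR quasi-likelihood test). KLF5, the least different of the 9, was at 60.5, 57.5 and 65.7 CPM in J82 and at 259, 225 and 228 CPM in RT-112, or 3.87-fold lower. FOXA1 stood at 2.98, 1.70 and 2.72 CPM in J82 and at 102, 88.4 and 85.3 CPM in RT-112, a 36.8-fold difference. No library of one line reached a level seen in the other for these 3 factors.

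The other members were barely detected in J82. GATA3 had 13 counts over the 3 parental J82 libraries and 2323 over those of RT-112. In CPM it was 175-fold lower in J82 (95% counting interval 102 to 330). The J82 counts were 0, 9 and 4, and the fitted log2 difference of -7.41 went to -6.75 without J82 parental replicate 1 and to -8.58 without replicate 2. ELF3, UPK1B, GRHL3 and UPK2 had 0 counts in parental J82, and 14156, 29450, 283 and 228 counts in parental RT-112. Against a floor of 3 counts over the J82 group, they were at least 4631-fold, 9633-fold, 92.6-fold and 74.6-fold lower. UPK1A had 2 counts in 1 parental J82 library and 164 in RT-112, a ratio of 80.5 with a counting interval of 21.9 to 670, which rests on that library, replicate 3. Over all 12 J82 libraries the sums were 56 counts of GATA3 in 7 libraries, 13 of ELF3 in 3 libraries, 8 of GRHL3 in 1 library, 2 each of UPK1A and UPK1B in 1 library each, and 0 of UPK2. For UPK3A, 0 counts in 24 libraries allow up to 0.00636 CPM of their pooled total. Its paralog UPK3B, named after its values were seen, was at group means of 25.6 to 29.6 CPM in RT-112 and at most 0.154 CPM in J82. These limits cover counting error only.

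**Figure D1:**
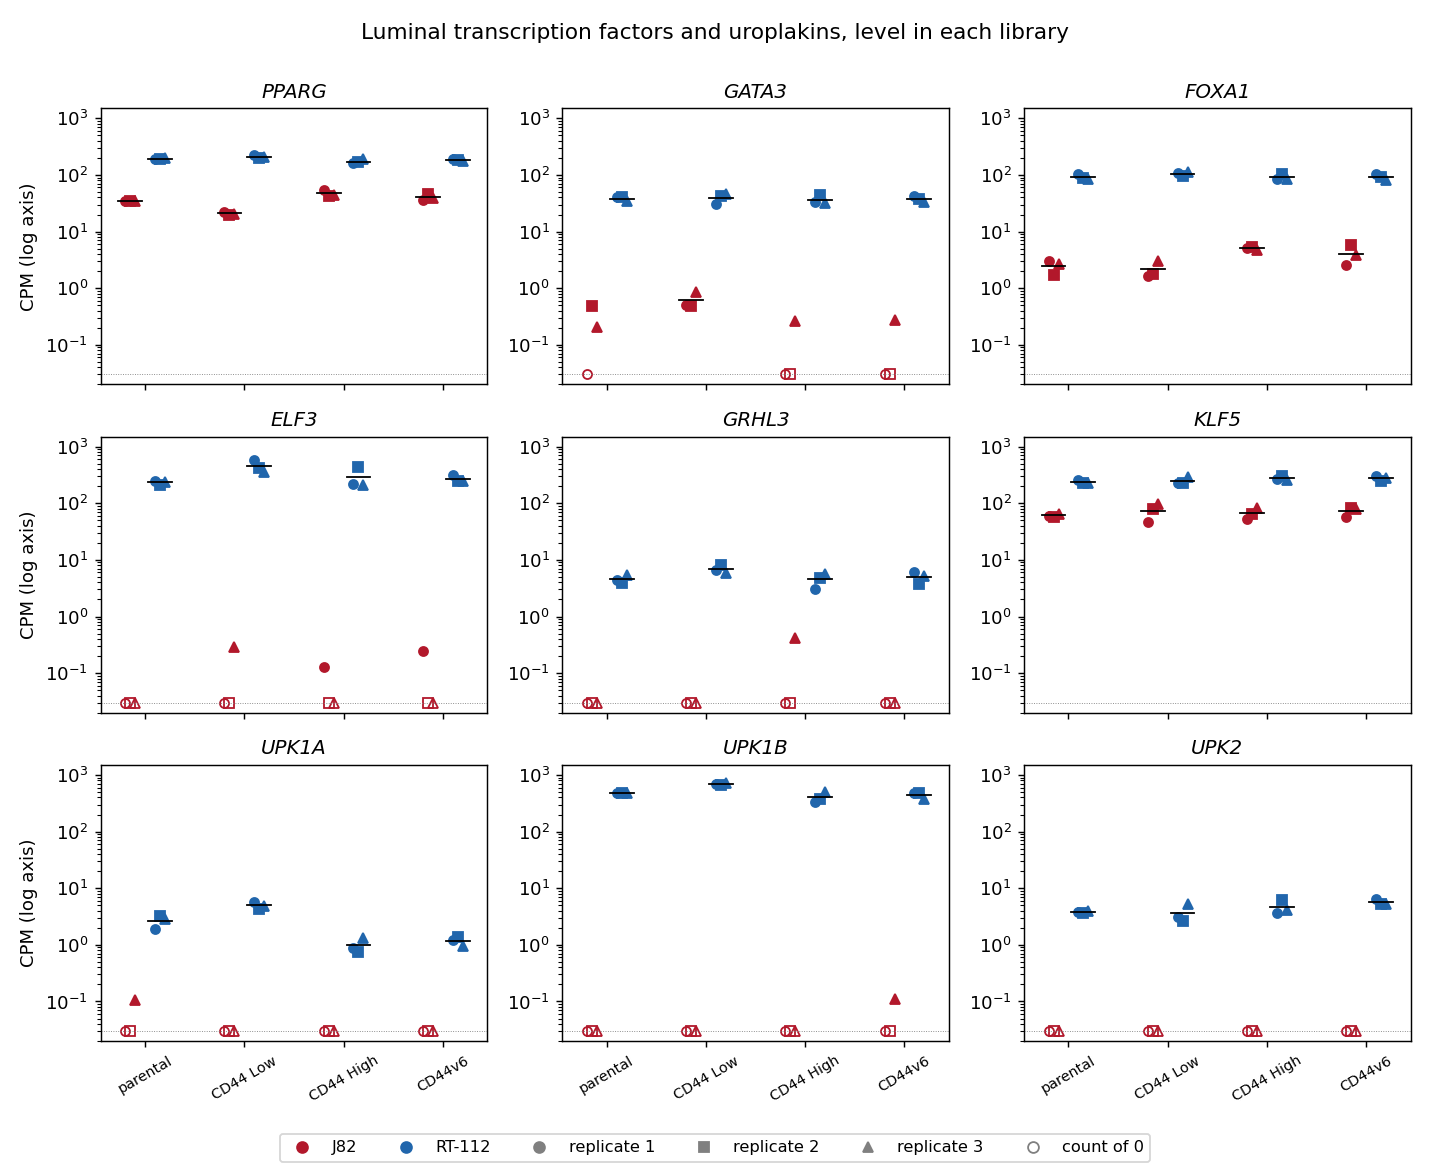
Level of 9 of the 10 genes in each of the 24 libraries (UPK3A, at 0 throughout, is left out). The y axis is CPM on a log scale, x the group, red J82 and blue RT-112; marker shape gives the replicate, black bars the group mean where no library is at 0, and open markers on the dotted line a count of 0. RT-112 lies above J82 in every panel; UPK1A and UPK1B are highest in RT-112 CD44 Low.

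Among the uroplakins of RT-112, UPK1A had low counts that separated CD44 Low and parental cells from each other and from CD44 High and CD44v6, which overlapped. It was at 5.79, 4.32 and 4.88 CPM in CD44 Low, at 1.87, 3.17 and 2.88 CPM in parental cells, at 1.22, 1.38 and 0.954 CPM in CD44v6 and at 0.882, 0.747 and 1.35 CPM in CD44 High. Every CD44 Low library lay above every other library of the line, and every CD44 High and CD44v6 library below all parental ones. The 12 libraries held 13 to 135 UPK1A counts each. Against CD44 Low, the log2 fold change was -2.27 in CD44 High (SE 0.29, adjusted p = 0.000436, edgeR quasi-likelihood test) and -2.08 in CD44v6 (SE 0.28, adjusted p = 0.000706). Of the 9 genes tested in RT-112, 3 were called lower and 0 higher in CD44 High cells than in CD44 Low, where 16.0% of all 15645 genes were called and 7.02% were called lower. CD44v6 against CD44 Low also gave 3 lower and 0 higher, with 16.0% of all genes called and 8.03% lower. Both UPK1A calls held in all 6 fits that left out 1 library of the groups compared, with log2 fold changes of -2.58 to -2.11 and of -2.19 to -1.94.

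UPK1B, the abundant tetraspanin, followed the same order. It stood at 680, 660 and 708 CPM in CD44 Low and at 482, 483 and 485 CPM in parental cells. CD44v6 libraries were at 485, 473 and 379 CPM and those of CD44 High at 336, 376 and 497 CPM. Again CD44 Low lay above all the rest, while CD44 High and CD44v6 overlapped the parental level. UPK1B was 1.65-fold lower in CD44 High cells than in CD44 Low (log2 fold change -0.73, SE 0.13, adjusted p = 0.00289) and 1.54-fold lower in CD44v6 (log2 fold change -0.62, SE 0.13, adjusted p = 0.00735). Both calls held in all 6 fits without 1 library. CD44 High replicate 3 was the highest of its group for UPK1A and UPK1B, and without it the log2 fold changes against CD44 Low were -2.58 (adjusted p = 0.00039) and -0.91 (adjusted p = 0.000198). Without CD44v6 replicate 3, the lowest CD44v6 library for both genes, the log2 fold changes in CD44v6 were -1.94 (adjusted p = 0.00471) and -0.51 (adjusted p = 0.0374).

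UPK2, the partner of UPK1A in the plaque, did not share this order. Its levels were 3.05, 2.66 and 5.31 CPM in CD44 Low, 3.74, 3.58 and 3.90 CPM in parental cells, 3.64, 6.26 and 4.04 CPM in CD44 High and 6.38, 5.19 and 5.28 CPM in CD44v6. The groups overlapped except that all CD44v6 libraries lay above the parental ones. Against CD44 Low the log2 fold change was 0.61 in CD44v6 (SE 0.26, adjusted p = 0.13) and 0.37 in CD44 High (SE 0.27, adjusted p = 0.374), neither past the threshold; without CD44 Low replicate 3 the CD44v6 value was 0.98 (adjusted p = 0.0189). The opposite-strand gene BCL9L overlaps an exon of UPK2 by 54 bases. It had 372 to 699 counts per RT-112 library and 211 to 970 per J82 library, and UPK2 was at 0 in J82. Whether reads of BCL9L add to the UPK2 counts was not tested.

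Of the transcription factors in RT-112, ELF3 varied most, within groups as well as between them. It was at 592, 421 and 350 CPM in CD44 Low, 249, 213 and 238 CPM in parental cells, 311, 246 and 247 CPM in CD44v6 and 216, 429 and 214 CPM in CD44 High. CD44 Low lay above parental cells and CD44v6, whereas CD44 High replicate 2 reached into the CD44 Low range. ELF3 was 1.70-fold lower in CD44v6 than in CD44 Low (log2 fold change -0.77, SE 0.24, adjusted p = 0.0437, edgeR quasi-likelihood test). That call held in 1 of 6 fits without a library, the one without CD44 Low replicate 3, and the adjusted p was 0.187 without CD44 Low replicate 1 and 0.151 without CD44v6 replicate 3. In CD44 High the log2 fold change of -0.64 missed the threshold (SE 0.24, adjusted p = 0.0835), and it was -1.04 without CD44 High replicate 2 (adjusted p = 0.00315) and -0.47 without CD44 High replicate 3 (adjusted p = 0.189). The antisense gene ELF3-AS1 shares up to 664 exon bases with ELF3 and had 17 to 69 counts per RT-112 library, against 3675 to 13806 for ELF3.

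PPARG moved little in RT-112. It was at 228, 199 and 205 CPM in CD44 Low, 193, 190 and 200 CPM in parental cells, 190, 184 and 173 CPM in CD44v6 and 161, 166 and 189 CPM in CD44 High. CD44 Low lay above CD44 High and above CD44v6 without overlap. PPARG was 1.20-fold lower in CD44 High cells than in CD44 Low, at -0.26 on the log2 scale (SE 0.08) and an adjusted p of 0.0499, on the edge of the threshold. The call held in 1 of 6 fits without a library, the one without CD44 High replicate 3 (log2 fold change -0.34, adjusted p = 0.0127); in the other fits the adjusted p lay between 0.0595 and 0.177. In CD44v6 the log2 fold change was -0.22 (SE 0.08, adjusted p = 0.0916), not past the threshold, and -0.17 without CD44v6 replicate 3 (adjusted p = 0.282).

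GRHL3, the umbrella cell factor, was at 6.61, 8.02 and 5.91 CPM in CD44 Low, 4.48, 3.95 and 5.48 CPM in parental cells, 3.06, 4.88 and 5.71 CPM in CD44 High and 6.07, 3.76 and 5.11 CPM in CD44v6. CD44 Low lay above parental cells and CD44 High, but the log2 fold change of -0.55 in CD44 High against CD44 Low was not past the threshold (SE 0.24, adjusted p = 0.14). GATA3, FOXA1 and KLF5 gave no call within RT-112. Over its 12 libraries GATA3 ran from 30.5 to 47.0 CPM (median 38.6), FOXA1 from 81.4 to 111 CPM (median 92.7) and KLF5 from 224 to 308 CPM (median 258). Their group means spanned 0.12, 0.19 and 0.23 on the log2 scale, against a pooled SD within groups of 0.23, 0.15 and 0.15. For UPK1A the same figures were 2.37 and 0.34, and for UPK1B 0.78 and 0.18.

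Against parental RT-112 cells 0 members were called in any of the 3 comparisons (edgeR quasi-likelihood test), where 3.20% of all genes were called in CD44 Low, 0.511% in CD44 High and 0.614% in CD44v6. At an unadjusted p under 0.05 there were 4 of the 9 members in CD44 Low, 1 in CD44 High and 1 in CD44v6, beside 2960, 1930 and 2389 of all 15645 genes, so that 1 of 9 is near the share of all genes. DESeq2 called 3, 1 and 1 members, beside 985, 292 and 599 genes in all. In CD44 Low the log2 fold changes were 0.92 for ELF3 (SE 0.24, adjusted p = 0.0543), 0.46 for UPK1B (SE 0.13, adjusted p = 0.0693), 0.88 for UPK1A (SE 0.26, adjusted p = 0.093) and 0.53 for GRHL3 (SE 0.24, adjusted p = 0.258). These 4 had all CD44 Low libraries above all parental ones, as did 15.8% of all genes tested, and the first 3 are those DESeq2 called. UPK1A was at -1.39 in CD44 High (SE 0.29, adjusted p = 0.0607) and at -1.20 in CD44v6 (SE 0.29, adjusted p = 0.0822). Without CD44 High replicate 3, UPK1A and UPK1B were called in CD44 High, UPK1A at -1.70 on the log2 scale (adjusted p = 0.0318). Without CD44 Low replicate 3, ELF3 was called in CD44 Low. Between CD44v6 and CD44 High edgeR called 0 members and 0% of all genes, DESeq2 called 0 members, and 0 members and 665 genes had an unadjusted p under 0.05. In each of these groups replicate 3 lay nearer to the other group's remaining replicates on the first principal component. The 0 calls therefore do not show that the groups are alike. In order of level, UPK1A and UPK1B thus ran from CD44 Low through parental cells and CD44v6 to CD44 High, with no pair of neighbours in that order past the threshold by edgeR.

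**Figure D2:**
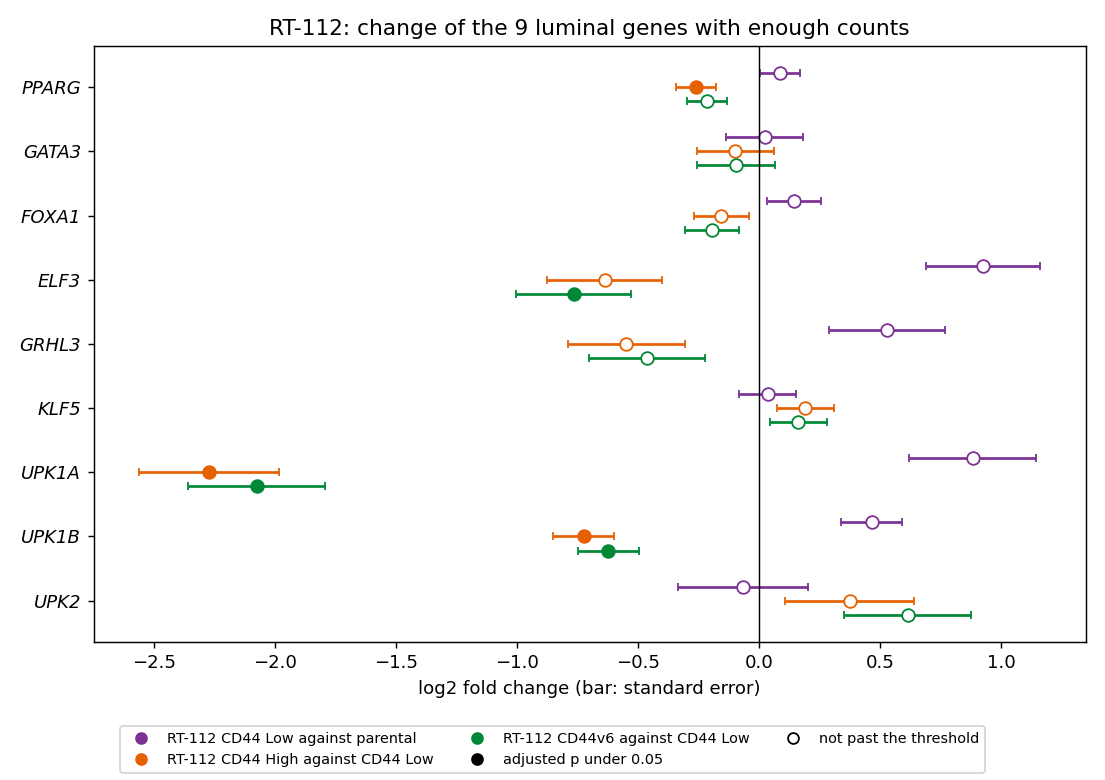
Log2 fold change (x axis) of the 9 genes tested in RT-112, for CD44 Low against parental cells (purple), CD44 High against CD44 Low (orange) and CD44v6 against CD44 Low (green). Bars are standard errors, filled points an adjusted p under 0.05. The filled points are UPK1A and UPK1B in both comparisons with CD44 Low, PPARG in CD44 High and ELF3 in CD44v6, all to the left of 0.

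Only PPARG, FOXA1 and KLF5 had enough counts to be tested in J82. PPARG was at 22.5, 19.8 and 20.6 CPM in CD44 Low, 34.5, 34.6 and 34.9 CPM in parental cells, 36.5, 45.6 and 39.6 CPM in CD44v6 and 53.6, 42.8 and 45.1 CPM in CD44 High. CD44 Low lay below every other library of the line, and both CD44 High and CD44v6 above the parental cells. PPARG was 2.26-fold higher in CD44 High cells than in CD44 Low (log2 fold change 1.18, SE 0.11, adjusted p = 1.72e-05, edgeR quasi-likelihood test) and 1.94-fold higher in CD44v6 (log2 fold change 0.96, SE 0.11, adjusted p = 0.000135). Against parental cells, CD44 Low cells held 1.66-fold less of it (log2 fold change -0.73, SE 0.11, adjusted p = 0.00232). These 3 calls held in all 6 fits without 1 library.

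Of the 3 genes tested in J82, 2 were called higher in CD44 High cells than in CD44 Low, where 15.7% of all genes were called and 8.83% were called higher. In CD44v6 against CD44 Low 1 was called higher (9.58% of all genes called, 6.18% higher). In CD44 Low against parental cells 1 was called lower (5.34%, 3.08% lower) and in CD44 High against parental cells 1 higher (2.94%, 1.71% higher). This last was PPARG, 0.45 higher on the log2 scale (SE 0.11, adjusted p = 0.0457), and it was lost in each of the 6 fits without 1 library, with adjusted p between 0.0691 and 0.198. In CD44v6 against parental cells edgeR called 0 members (2.60% of all genes), with 0 at an unadjusted p under 0.05, and in CD44v6 against CD44 High 0 members (0%), again with 0; DESeq2 called 0 in both. The order of PPARG was CD44 High, CD44v6, parental, CD44 Low, and the only neighbours in it past the threshold were parental cells and CD44 Low.

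FOXA1 was at 5.16, 5.34 and 4.80 CPM in CD44 High cells of J82, 2.57, 5.83 and 3.78 CPM in CD44v6, 2.98, 1.70 and 2.72 CPM in parental cells and 1.67, 1.78 and 3.04 CPM in CD44 Low. CD44 High lay above CD44 Low and parental cells, and CD44v6 overlapped every group. FOXA1 was 2.37-fold higher in CD44 High cells than in CD44 Low (log2 fold change 1.24, SE 0.33, adjusted p = 0.0233). The call held in 2 of 6 fits, those without CD44 Low replicate 3 (1.57, adjusted p = 0.0136) and without CD44 High replicate 3 (1.29, adjusted p = 0.046). In the fits without CD44 Low replicate 1 or 2, or CD44 High replicate 1 or 2, the adjusted p lay between 0.0639 and 0.0926. These levels rest on 30 to 120 counts per library. KLF5, at 46.2 to 95.2 CPM over the 12 libraries (median 65.6), gave no call in J82. GATA3, untested for its low counts, had 9, 9 and 15 counts in CD44 Low, 0, 9 and 4 in parental cells, and 5 counts in 1 library each of CD44 High and CD44v6.

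For PPARG the difference between CD44 High and CD44 Low had opposite signs in the lines, though the RT-112 call held in only 1 of 6 fits without 1 library. The difference of these changes, which does not test the RT-112 change by itself, was tested over all 24 libraries. J82 minus RT-112 it was 1.47 on the log2 scale for PPARG (SE 0.14, adjusted p = 4.76e-07, edgeR quasi-likelihood test) and 1.43 for FOXA1 (SE 0.31, adjusted p = 0.00457), where 10.7% of all genes were called and 6.24% with a positive sign. For KLF5 it was -0.29 (SE 0.27, adjusted p = 0.574). In CD44v6 against CD44 Low, with 7.52% of all genes called and 4.56% positive, it was 1.16 for PPARG (SE 0.14, adjusted p = 1.37e-05) and 1.08 for FOXA1 (SE 0.32, adjusted p = 0.0403), the latter called in 4 of 12 fits without 1 library. It was lost without J82 CD44 Low replicate 1 or 2, J82 CD44v6 replicate 2 or 3, RT-112 CD44 Low replicate 1 or 3, or RT-112 CD44v6 replicate 2 or 3 (adjusted p 0.0511 to 0.114). In CD44 Low against parental cells, with 1.06% of all genes called and 0.757% negative, it was -0.85 for PPARG (SE 0.14, adjusted p = 0.00224). The PPARG values held in all 12 fits of each comparison. GATA3, with 56 counts over the J82 libraries, was at -2.72 in CD44 High (SE 0.93, adjusted p = 0.0659) and at -2.60 in CD44v6 (SE 0.94, adjusted p = 0.0952), neither past the threshold. DESeq2 called both (adjusted p = 0.00296 and 0.00693). So did edgeR without J82 CD44 High replicate 3 (adjusted p = 0.0152) or J82 CD44v6 replicate 3 (adjusted p = 0.0294), each the single library of its group with GATA3 counts. These edgeR fits put that J82 group at 0 counts, so their calls follow from the library left out. The GATA3 sizes of the main fit rest on 5 counts in J82 CD44 High and 5 in J82 CD44v6. DESeq2 also called GRHL3 in CD44 High, on 8 counts in 1 J82 library. The sizes for GRHL3, ELF3 and the uroplakins are not given, since J82 groups at or near 0 leave them undefined. All contrasts with CD44 Low share its libraries.

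**Figure D3:**
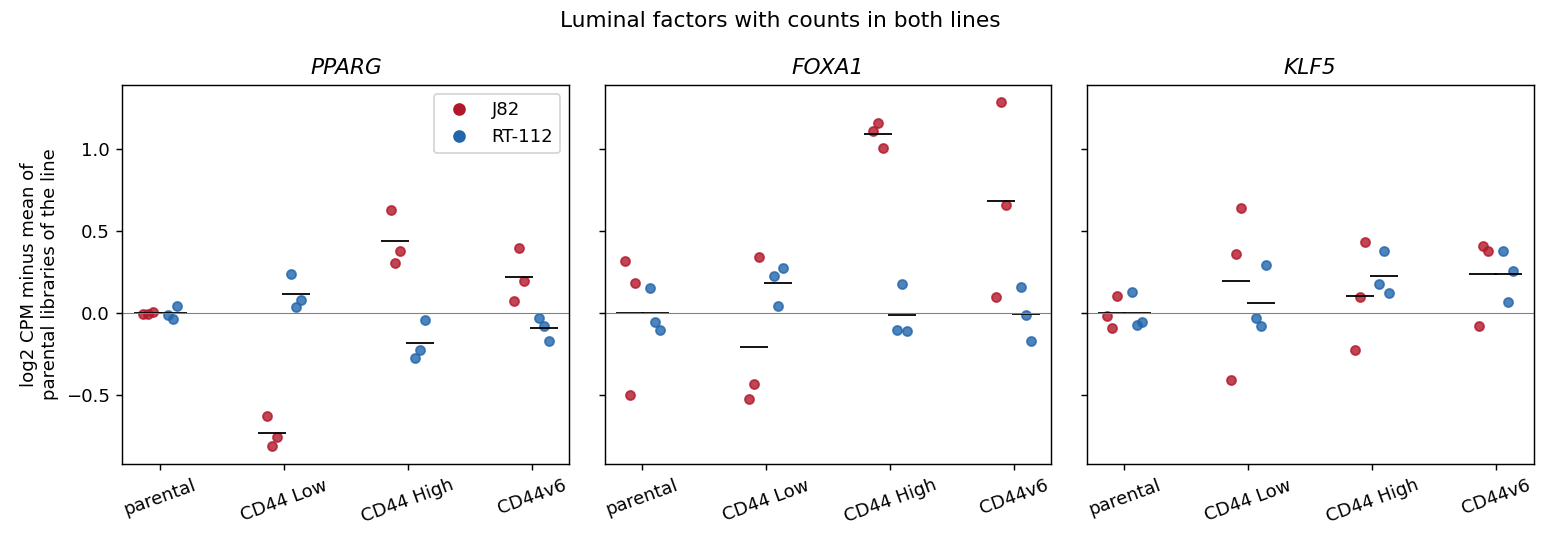
The 3 factors with counts in both lines. The y axis is log2 CPM of each library minus the mean over the parental libraries of its line, x the group, red J82 and blue RT-112; black bars are group means. PPARG falls in J82 CD44 Low and lies above 0 in J82 CD44 High and CD44v6, while in RT-112 it stays within 0.30 between group means; FOXA1 in J82 is highest in CD44 High, and KLF5 overlaps throughout.

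Genes that surround the members were counted from lists. Of 17 other uroplakin and umbrella cell genes, 15 were tested in RT-112, and in CD44 High against CD44 Low 8 were lower and 0 higher, where 7.02% of all genes were lower. The list's median log2 fold change was -0.68, and that of all genes 0.02. In CD44v6 5 were lower and 0 higher (median -0.62), where 8.03% of all genes were lower. SYTL2, a synaptotagmin-like protein of vesicle transport, was at 279, 207 and 191 CPM in CD44 Low and at 70.4, 79.5 and 104 CPM in CD44 High, with no overlap (log2 fold change -1.38, SE 0.18, adjusted p = 0.000464). CYP4B1, a cytochrome P450 of the urothelium, was at -1.25 (SE 0.25, adjusted p = 0.0055). In J82 9 of this list were tested and 1 was called in CD44 High against CD44 Low, RAB11FIP5, an effector of recycling endosomes, at 1.66 (SE 0.27, adjusted p = 0.00122). That 1 of 9 is below the 15.7% called over all genes.

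Of 18 luminal markers tested in RT-112, 9 were lower and 2 higher in CD44 High against CD44 Low cells (median -0.29). In CD44v6 against CD44 Low 9 were lower and 1 higher (median -0.31). Each comparison had 16.0% of all genes called in either direction. KRT20, the keratin of umbrella cells, was at 12.5, 24.1 and 21.3 CPM in CD44 Low, 6.12, 6.11 and 6.64 CPM in parental cells, 1.94, 1.26 and 5.34 CPM in CD44 High and 6.57, 3.29 and 1.23 CPM in CD44v6. As for UPK1A, CD44 Low lay above all other libraries, and the log2 fold change in CD44 High was -2.69 (SE 0.52, adjusted p = 0.00502). HPGD, which inactivates prostaglandins, was at 137, 108 and 85.6 CPM in CD44 Low and at 18.9, 25.5 and 27.0 CPM in CD44 High (log2 fold change -2.17, SE 0.18, adjusted p = 4.36e-05), and it was also higher in CD44 Low than in parental cells (1.25, SE 0.18, adjusted p = 0.00396). SYTL2, CYP4B1, KRT20 and HPGD kept these calls in all 6 fits without 1 library, and KRT20 went to -3.56 without CD44 High replicate 3 (adjusted p = 0.00111). The 2 markers that were higher in CD44 High were EPCAM, an adhesion molecule, at 0.55 (SE 0.15, adjusted p = 0.0254) and FGFR3, a growth factor receptor, at 0.37 (SE 0.08, adjusted p = 0.0083); EPCAM lost its call without CD44 High replicate 1, CD44 Low replicate 2 or CD44 Low replicate 3 (adjusted p 0.0749 to 0.122). In the fit on the CD44 High and CD44 Low libraries alone, the adjusted p was 0.0599 for EPCAM and 0.0672 for FGFR3. In J82, 3 of 13 luminal markers were higher and 2 lower in CD44 High cells than in CD44 Low, where 15.7% of all genes were called. KRT7, a simple keratin, rose there by 1.44 (SE 0.15, adjusted p = 3.5e-05). In RT-112 its log2 fold change was -0.25 (SE 0.07, adjusted p = 0.0281; 0.0701 to 0.0976 without CD44 High replicate 1, CD44 Low replicate 1 or CD44 Low replicate 2, and 0.0654 in the fit on these groups alone), and the difference between the lines was 1.71 (SE 0.17, adjusted p = 1.51e-06).

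Basal and squamous markers moved in both directions in RT-112, with 10 higher and 6 lower of 23 tested in CD44 High against CD44 Low (median 0.32). Over all genes 16.0% were called in either direction and 7.02% were called lower. KRT5, the basal keratin, was at 330, 377 and 389 CPM in CD44 Low and at 677, 718 and 619 CPM in CD44 High (log2 fold change 0.91, SE 0.12, adjusted p = 0.00049), and TP63, the basal cell factor, was at 0.70 (SE 0.10, adjusted p = 0.0012). KRT6A, a keratin of squamous and activated epithelia, was at 1.24 (SE 0.17, adjusted p = 0.000605). SERPINB3, a protease inhibitor of squamous cells, went the other way at -2.61 (SE 0.27, adjusted p = 0.000122), as did S100A8 at -1.98 (SE 0.34, adjusted p = 0.00252). KRT17, a more abundant keratin of this list, was at 3059, 3075 and 2391 CPM in CD44 Low and at 1450, 2211 and 1669 CPM in CD44 High. J82 had no count of KRT5 or KRT20 in any library. Of this list 11 genes were tested there. CD44 High cells had 2 called higher and 2 lower against CD44 Low, where 15.7% of all genes were called. The median change was -0.15. ITGA6 was at 1.10 (SE 0.09, adjusted p = 4.58e-06, edgeR test). KRT17 was at -1.45 (SE 0.15, adjusted p = 4.39e-05) and ITGB4 at -1.35 (SE 0.31, adjusted p = 0.011). ITGB4 lost its call without CD44 Low replicate 1 (adjusted p = 0.057).

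Of the partners and target genes of PPARG, 17 were tested in RT-112. In CD44 High against CD44 Low cells 1 was higher and 4 lower (median -0.03), where 16.0% of all genes were called. In J82 6 were higher and 2 lower of 18 (median 0.00, against -0.02 over all genes), where 15.7% of all genes were called. FABP4 and FABP5 are fatty acid binding proteins, and FABP4 is a classic PPARG target. FABP4 was at 2803 ± 245 CPM in RT-112 CD44 Low and 967 ± 624 CPM in CD44 High (SD, n = 3), where its libraries ran from 580 to 1686 CPM. Its log2 fold change was -1.50 (SE 0.38, adjusted p = 0.0177), lost without CD44 High replicate 1 (adjusted p = 0.0777) and without CD44 Low replicate 2 (adjusted p = 0.0514), and at -2.18 without CD44 High replicate 3 (adjusted p = 0.000486). FABP5 was at -1.20 (SE 0.22, adjusted p = 0.00342) in RT-112, and its change differed between the lines by 1.55 (SE 0.24, adjusted p = 0.000253). In J82, where FABP4 had counts in 3 of 12 libraries, MGLL, a monoglyceride lipase, followed the order of PPARG: 28.8 ± 1.85 CPM in CD44 Low, 60.8 ± 2.70 CPM in parental cells, 78.1 ± 7.26 CPM in CD44v6 and 84.5 ± 7.64 CPM in CD44 High. It was 1.56 higher on the log2 scale in CD44 High cells than in CD44 Low (SE 0.10, adjusted p = 5.43e-07), and LPL, lipoprotein lipase, 1.14 higher (SE 0.22, adjusted p = 0.00331). PPARGC1A, a coactivator of PPARG, was at -1.16 (SE 0.16, adjusted p = 0.000406) and the related receptor PPARA at -1.10 (SE 0.21, adjusted p = 0.00364). The partner RXRA, named after its values were seen, had group means of 91.5 to 103 CPM in RT-112 and 16.1 to 27.7 CPM in J82.

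**Figure D4:**
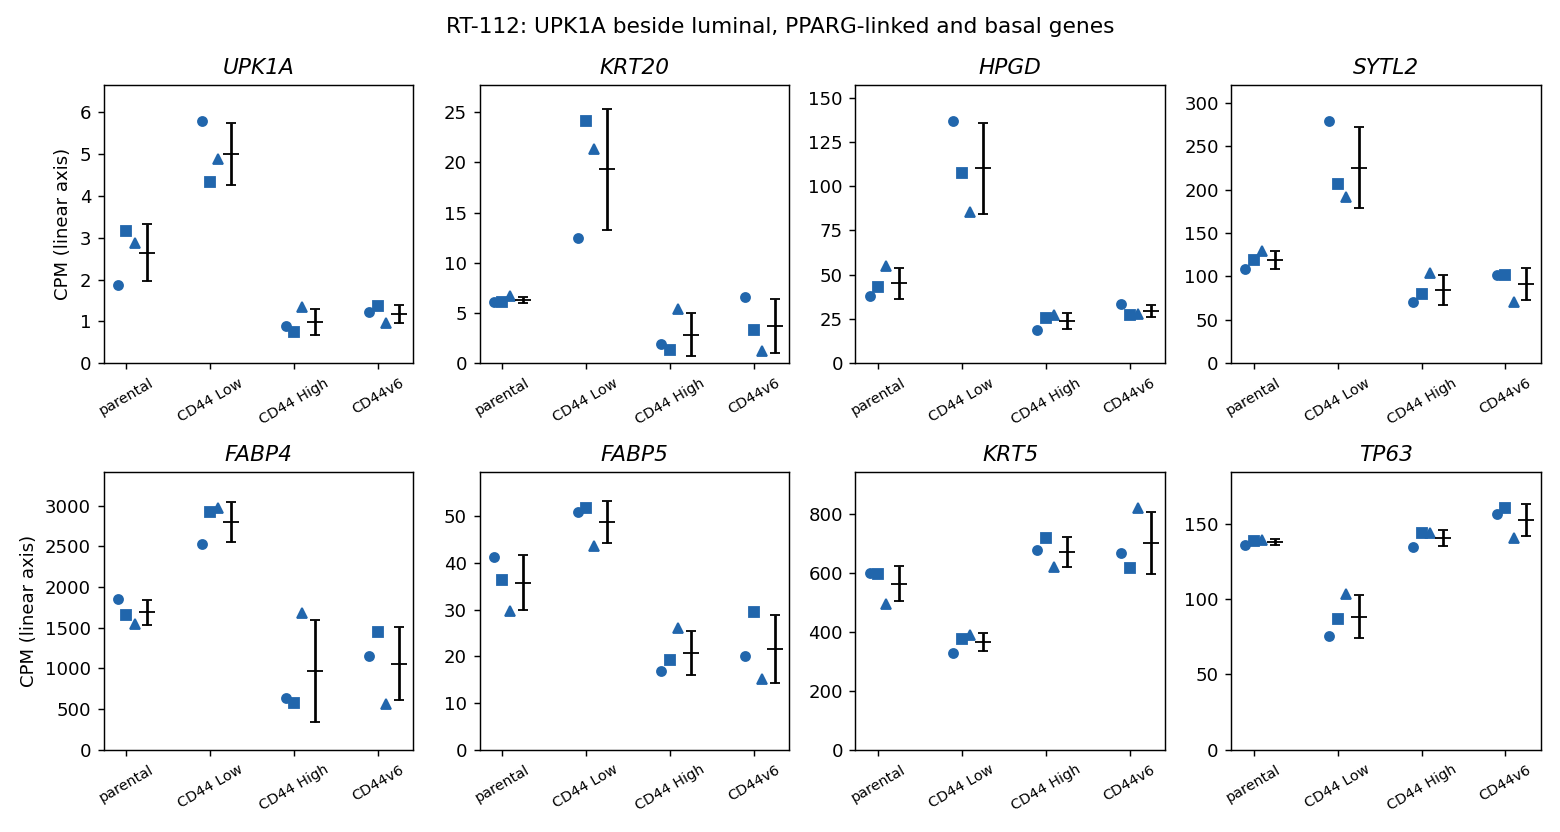
UPK1A beside luminal (KRT20, HPGD), umbrella cell (SYTL2), PPARG-linked (FABP4, FABP5) and basal (KRT5, TP63) genes in the 12 RT-112 libraries. The y axes are CPM on linear scales from 0, x the group; marker shape gives the replicate (circle 1, square 2, triangle 3), and bars the mean and SD of 3 libraries. The first 6 genes are highest in CD44 Low. KRT5 and TP63 are lowest there, unlike KRT17, S100A8 and SERPINB3 of the same basal list (not drawn), which are higher in CD44 Low than in CD44 High.

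Among 24 other epithelial transcription factors, 21 were tested in RT-112. In CD44 High cells 2 were higher and 3 lower than in CD44 Low ones (median -0.01), where 16.0% of all genes were called. GRHL1, the paralog of GRHL3, was at -0.52 (SE 0.12, adjusted p = 0.0118), lost without CD44 Low replicate 1 (adjusted p = 0.0531), and the T-box factor TBX3 at -0.71 (SE 0.13, adjusted p = 0.00354). TFAP2A, an AP-2 factor, was at 0.93 (SE 0.18, adjusted p = 0.00448). In J82 13 were tested, with 1 higher and 1 lower, near the 15.7% called over all genes, the T-box factor TBX2 being at 1.26 (SE 0.25, adjusted p = 0.0046). GRHL2 and EHF, a grainyhead and an ETS factor named after their values were seen, had group means of 249 to 274 and 291 to 329 CPM in RT-112. GRHL2 was at 0 in all J82 libraries, and EHF at no more than 0.285 CPM. A list of 11 mesenchymal genes was counted too. In J82 9 were tested, and CD44 High cells had 1 called higher and 1 lower against CD44 Low. These were VIM at 1.40 (SE 0.08, adjusted p = 2.89e-07, edgeR test) and ZEB2 at -0.62 (SE 0.14, adjusted p = 0.00936). ZEB2 lost its call without CD44 High replicate 1 or 2, or CD44 Low replicate 1 (adjusted p 0.0501 to 0.0503). In RT-112 7 were tested, and only FN1 was called there, at 1.35 (SE 0.23, adjusted p = 0.0025).

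Markers of leukocytes, endothelium, fibroblasts and smooth muscle, 14 in all, summed to 228 to 282 CPM in RT-112 CD44 Low, 174 to 209 CPM in parental cells, 133 to 194 CPM in CD44 High and 141 to 192 CPM in CD44v6, so the sum was also highest in CD44 Low. Between 6 and 8 of the 14 were at 0 in all 3 libraries of an RT-112 group. The sum was mostly LUM, a matrix proteoglycan, at means of 141 to 232 CPM, which was lower in CD44 High cells than in CD44 Low (log2 fold change -0.69, SE 0.18, adjusted p = 0.0191; 0.077 without CD44 High replicate 1 and 0.0836 without CD44 Low replicate 1). PTPRC, which defines leukocytes, was at 0 in every RT-112 library. In J82 the sum ran from 122 to 166 CPM in CD44 Low and from 161 to 237 in CD44 High, most of it CD68, which was higher in CD44 High (0.84, SE 0.23, adjusted p = 0.0262; 0.0907 to 0.106 without CD44 High replicate 3, CD44 Low replicate 1 or CD44 Low replicate 2). Of the 6 markers tested in J82, 1 was higher and 2 lower (median -1.37), where 15.7% of all genes were called. LUM was at -1.01 (SE 0.14, adjusted p = 0.000402) and PDGFRB, a receptor of fibroblasts and pericytes, at -1.20 (SE 0.33, adjusted p = 0.0248). PDGFRB lost its call without any 1 CD44 High library or without CD44 Low replicate 1 (adjusted p 0.0572 to 0.125). The part of these genes in the results was not tested.

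The genes most like each abundant factor over the 12 RT-112 libraries were found by the root mean square difference of mean-centred log2 CPM among 9892 genes. For ELF3 they were HES1 at 0.172, IER5 at 0.180 and HMOX1 at 0.181, against a median of 0.482 over all genes. For PPARG they were ATP5F1C at 0.0392, ATP5MPL at 0.0523 and MDH1 at 0.0528 (median 0.216), and for GATA3 ITGA5 at 0.0874, FUBP3 at 0.110 and WIPF2 at 0.114 (median 0.264). FOXA1 was nearest to ATP5MC3 at 0.0604, PTGES at 0.0820 and FBXW8 at 0.0832 (median 0.226). KLF5 was nearest to GTF3C2 at 0.0687, FOXJ3 at 0.0745 and ARHGEF7 at 0.0810 (median 0.234). A factor that varies little is close to any gene that varies little, so these values describe the libraries and name no relation.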

How the data were processed

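The authors deposited 1 table of raw gene counts for the 24 libraries. The submitters' processing notes list HISAT2, StringTie and GRCh37, with no version or role. The annotation and the use of strand are not given in the sources used here. The labels' protocols name a column kit for total RNA. All values were whole numbers and every column matched a sample by title, with 0 columns unmatched and 0 lines without a gene name.

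Counts were fitted in R 4.3.3 with edgeR 4.0.16: filterByExpr, TMM factors, then the quasi-likelihood test (glmQLFit, glmQLFTest) with group as the only term, two-sided, per line on its 12 libraries (15951 genes in J82, 15645 in RT-112) and over all 24 libraries (17438 genes) for differences between lines. Adjusted p is Benjamini-Hochberg over all genes of a fit. Each SE of a log2 fold change was derived from the test, as its absolute value divided by the square root of the F statistic. A count of 0 over a group was set to a floor of 3 counts, and counting intervals are exact at 95%. Before use, the code was tested on simulated data in which 200 genes differed. GENCODE 29 gave exon lengths and gene overlaps, and a RefSeq table on GRCh38.p14 gave promoter windows; both differ from the build behind the counts, so an overlap there need not hold in the authors' annotation.

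The genes, the context lists and the tests were chosen with earlier results of these data known. Named genes come from the 10 genes; of each list, per line, the 2 called genes that rose most and the 2 that fell most in CD44 High against CD44 Low, given a mean log2 CPM of 2 or more; state markers of the lines; CD44; and the 3 genes most like each factor with at least 10 CPM. The series text calls the replicates biological. Replicates differed beyond sampling noise, with a chi-square per degree of freedom of at least 6.03. Whether equal replicate numbers pair libraries was checked by correlating their deviations from the group means: all 3 correlations were over 0.1 in 1 of 12 comparisons, J82 CD44v6 against CD44 High (0.113, 0.109 and 0.252), where 0 of these genes were called with or without the block. In J82 the correlation of replicate 3 was also 0.230 in CD44 High against CD44 Low and 0.378 in CD44v6 against CD44 Low. The other correlations of those comparisons lay from 0.038 to 0.113. In RT-112 CD44v6 against CD44 High that of replicate 3 was -0.305. Alternatives were median-of-ratios factors, no filter, DESeq2 1.42.0, fits on the groups compared, a replicate block and leaving out each library. Figures used Python 3.11.15 and matplotlib 3.10.9. At these depths counting error weighs most for UPK1A, UPK2, GRHL3 and, in J82, FOXA1.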

Additional observations from a re-analysis of the deposited data

Results flagged for a closer look

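With 9 members tested in each contrast, 5 changes differed between the lines by the test of the difference itself, J82 minus RT-112, on the log2 scale. In CD44 High against CD44 Low the difference was 1.47 for PPARG and 1.43 for FOXA1, where 10.7% of all genes were called. In CD44v6 against CD44 Low it was 1.16 for PPARG and 1.08 for FOXA1, where 7.52% of all genes were called. That FOXA1 value was called in 4 of 12 fits without 1 library. In CD44 Low against parental cells the difference was -0.85 for PPARG, where 1.06% of all genes were called. For PPARG the changes against CD44 Low were positive and called in J82. In RT-112 they were -0.26 in CD44 High (adjusted p = 0.0499, called in 1 of 6 fits without a library) and -0.22 in CD44v6 (adjusted p = 0.0916, not past the threshold). For FOXA1 the RT-112 changes of -0.16 and -0.19 were not past the threshold either. In J82 the FOXA1 change in CD44 High was 1.24, called in 2 of 6 fits without a library. In J82 CD44v6 it was 0.91 and not past the threshold (adjusted p = 0.116, edgeR quasi-likelihood test). The contrasts share the CD44 Low libraries, so these values are not independent of each other.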

How the results depend on the processing

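Of 41 results on single genes with an unadjusted p under 0.05, 446 of 505 values under the alternatives kept their direction and their side of the threshold, 37 lost the call, 22 gained one and 0 reversed. The 41 include the 9 differences between the parental lines, all called in each of the 6 fits without 1 library. They also include results not called in the main fit, which kept their side by staying uncalled. The total therefore does not measure how stable the calls within a line were. Under the replicate block, which the labels do not explain, PPARG in J82 CD44 High against parental cells went to an adjusted p of 0.0538, PPARG in CD44 High against CD44 Low cells of RT-112 to 0.07 and ELF3 in RT-112 CD44v6 against CD44 Low to 0.0557. With the block the members called numbered 0 in J82 CD44 High against parental cells and 1 in the difference between lines for CD44v6 against CD44 Low. In J82 CD44 High against parental cells (1 called) no filter gave 0, DESeq2 2 and the fit on the groups compared 2. Against parental RT-112 cells (0 called) DESeq2 gave 3 in CD44 Low, 1 in CD44 High and 1 in CD44v6, and the fit on the groups compared 3 in CD44 Low and 1 in CD44v6. In the difference between lines DESeq2 gave 4 for CD44 High against CD44 Low, and the fit on the groups compared 1 for CD44v6 against CD44 Low. The 4 include GATA3 and GRHL3, which had 5 and 8 counts in J82 CD44 High, all in replicate 3. The cause of these shifts in number was not tested. Over all genes, too, DESeq2 called more than edgeR against parental RT-112 cells: 985 against 500 in CD44 Low, 292 against 80 in CD44 High and 599 against 96 in CD44v6. The fit on the groups compared called 1171 genes in place of 2507 in CD44 High against CD44 Low of RT-112. In these same comparisons with parental RT-112 cells, that fit called 1126, 43 and 953 genes, the block 303 in CD44 Low and 58 in CD44v6, and no filter 60 in CD44v6. Against parental J82 cells edgeR called 852, 469 and 415 genes in CD44 Low, CD44 High and CD44v6, DESeq2 1451, 916 and 1061, and the fit on the groups compared 1501, 1350 and 148, with 253 in CD44v6 under no filter. In J82 CD44v6 against CD44 Low the fit on the groups compared called 636 in place of 1528. In CD44v6 against CD44 High, DESeq2 gave 70 calls for J82 and 2 for RT-112, where edgeR called 0 and the fit on the groups compared 1 and 0. In the differences between lines, DESeq2 called 2071 in place of 1312 for CD44v6 against CD44 Low, and for CD44 Low against parental cells DESeq2 called 544 and the fit on the groups compared 494 in place of 185.

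Leaving out 1 library gave 0 to 0 called in J82 CD44 High against parental cells, 1 to 2 in J82 CD44 High against CD44 Low, 0 to 1 in RT-112 CD44 Low against parental cells, 0 to 2 in RT-112 CD44 High against parental cells, 2 to 3 in CD44 High against CD44 Low cells of RT-112, 2 to 4 in RT-112 CD44v6 against CD44 Low, 2 to 3 in the difference between lines for CD44 High against CD44 Low and 1 to 2 for CD44v6 against CD44 Low. A change of scaling moved the median of all genes by at most 0.02 (log2).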
